A study of Mus musculus with 40 samples.

Results

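The comparison covered the epithelium of colon tumors that form after deletion of Apc and the epithelium of healthy mouse colon, sorted as EpCAM+ CD45- cells. It rested on 8 of the 40 RNA-seq libraries of the series, 4 labelled T_CE (tumor) and 4 labelled WT_CE (healthy), chosen by these labels alone. The other 32 libraries came from neutrophils and monocytes of tumors and blood and from the EpCAM- CD45- stromal fraction of the colon, and of these only the 8 stromal libraries entered a test. The tumor mice carried Cdx2CreERT2 and Apc fl/fl, on a background whose label reads C57Bl6/Sv followed by a number that differs from sample to sample, and received 1 intraperitoneal dose of 25 mg/kg Tamoxifen at an age of 8 to 10 weeks. The healthy mice were labelled C57Bl6, with no transgene and no agent. Strain background, transgene, Tamoxifen and tumor therefore changed together between the groups and cannot be told apart. The Cdx2 promoter drives the inducible recombinase in the colon epithelium, and not in its stroma. The labels did not say in so many words that each library came from a separate animal, and the p-values then measure only the spread between these samples.

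Apc is the scaffold of the cytoplasmic complex that marks β-catenin for destruction. When it is lost, β-catenin accumulates, enters the nucleus and acts with TCF/LEF factors on Wnt target genes, among them feedback inhibitors such as Axin2, Notum and Nkd1. In the healthy colon this program is confined to the crypt base, where stem cells reside. Cells that leave the base become absorptive colonocytes, mucus-producing goblet cells, hormone-producing enteroendocrine cells or chemosensory tuft cells.

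The 8 libraries held 15992240 to 38002110 estimated counts, of which mitochondrial genes took 46.3 to 60.5% in the tumor group and 48.6 to 83.9% in the healthy group. The mean mitochondrial share was 55.1 ± 6.29% (SD, n = 4) in tumor and 62.2 ± 16.9% (SD, n = 4) in healthy epithelium, a difference within the spread between libraries (2-sided exact permutation test over 70 arrangements, p = 0.486, where 0.0286 is the smallest p that 4 against 4 allows). The remaining depth ran from 6135838 counts in healthy replicate 4 to 15601877 in tumor replicate 3. Across genes, log-scale levels correlated at 0.89 to 0.96 between tumor libraries, at 0.83 to 0.94 between healthy libraries and at 0.65 to 0.80 between the groups. The epithelial markers Epcam, Cdh1, Krt8, Krt18, Krt19, Vil1 and Cldn7 summed to 943 to 1366 CPM in tumor and 1594 to 1747 in healthy libraries. CPM are counts relative to library size, scaled by edgeR's TMM factors, the unit of all levels below. On a scale set over all 40 libraries the sum was 1311 to 2042 in tumor and 2290 to 2631 in healthy epithelium, against 7.82 to 107 in healthy stroma. Tumor stroma, at 177 to 1552, overlapped the tumor epithelium, and tumor neutrophils reached 1120.

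In the healthy group 2 libraries stood apart. Healthy replicate 4 held 309.8 CPM of the 14 tuft cell markers, against 23 to 36.9 in the other healthy and 46.7 to 69.7 in the tumor libraries. It also held 431 CPM of B and plasma cell markers, of which Jchain made 408, where the next highest library, healthy replicate 1, held 27.5. The leukocyte markers Ptprc, Laptm5 and Coro1a summed to 70.9 CPM in healthy replicate 4 and to at most 9.98 in the other 7 libraries. Healthy replicate 1 held low levels of the genes that were highest in tumors: the 12 abundant genes with the largest rise were there at 1.03 to 5.55% of their tumor mean (median 3.13%), whereas their medians were 0.162%, 0.0245% and 0.206% in healthy replicates 2, 3 and 4. In the opposite direction, the 12 genes with the largest fall were in the 4 tumor libraries at medians of 0.654%, 0.205%, 1.61% and 0.888% of their healthy mean. Sex-linked transcripts also differed, both within and between the groups: Xist was at 0.809 to 1.1 CPM in tumor replicates 1 to 3, at 1555 in tumor replicate 4 and at 548 to 1750 in the healthy libraries. Healthy replicates 2 to 4 also held Y-linked Kdm5d at 24.5 to 32.2, and thus transcripts of both sexes. Xist differed with group except in tumor replicate 4, so that sex and tumor can be told apart only in part. Among markers of other cell types, the endothelial cadherin Cdh5 (log2 fold change 4.62) and the fibroblast receptor Pdgfra (3.52) were higher in tumors and the fibroblast proteoglycan Dcn (-4.03) and the neutrophil marker Retnlg (-3.83) lower, by the test given below. Summed endothelial markers were at 37.8 to 62.2 CPM in tumor and 1.36 to 32.2 in healthy libraries, summed fibroblast markers at 14.6 to 73.5 and 2.28 to 89.6. Of the smooth muscle markers Acta2 was higher (2.32) and Tagln lower (-2.28), and the epithelial marker Vil1 was lower (-1.57). No tested marker of glia, leukocytes, monocytes and macrophages, T cells, B and plasma cells, erythroid cells, sex or strain was called, but 5 of 6 T cell, 4 of 5 B and plasma cell and 3 of 8 monocyte and macrophage markers had too few counts for the test. The part that these differences had in the results was not tested. Without healthy replicates 1 and 4, the median log2 fold change of the neutrophil markers was 4.03 (2 higher and 1 lower of 4, against -2.33 with all libraries), that of the leukocyte markers 1.65 (1 of 3 higher, against -1.27), that of the erythroid and platelet markers 3.89 (2 of 4 higher, against 1.46) and that of the fibroblast markers 0.28 (against -1.87). Values without these libraries are given below for the lists and genes named with them.

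**Figure D1:**
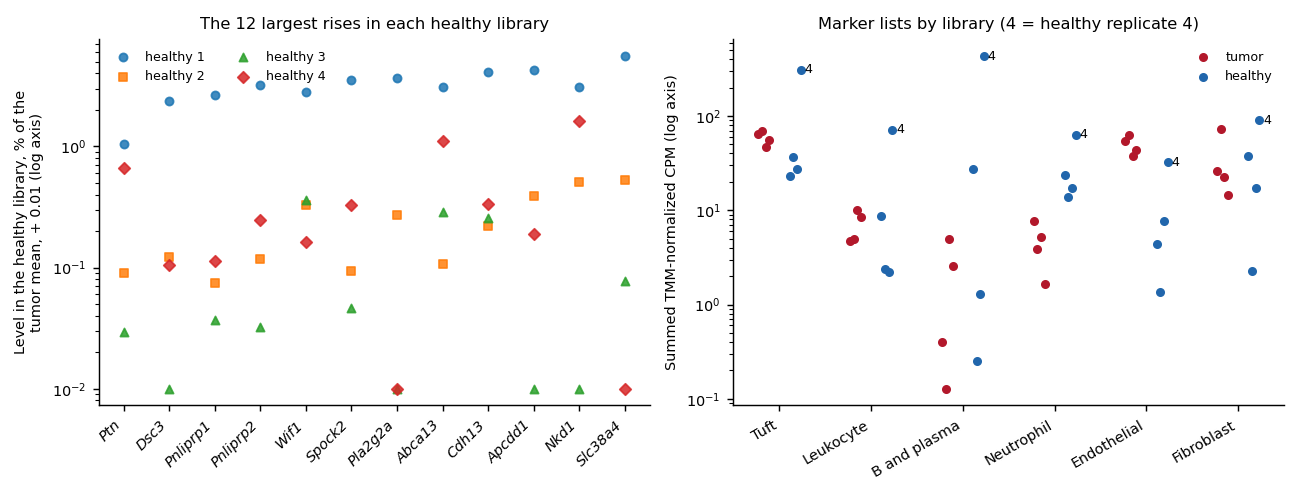
The left panel plots, on a log axis, the level of each of the 12 abundant genes with the largest rise in tumors as a percentage of its tumor mean (plus 0.01) in each of the 4 healthy libraries, where healthy replicate 1 lies highest with a median of 3.13%. The right panel plots the summed level (CPM, log axis) of markers of 6 other cell types, 1 point for each of the 8 libraries, with healthy replicate 4 marked and highest for tuft cells at 309.8 and for B and plasma cells at 431.

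Promoters are shown first for the genes whose change bears on the transcription factors of this system. In RefSeq windows of 300 bases (250 before to 50 after a transcript start, GRCm38.p6), the core letters of a TCF/LEF site, CTTTGAA or CTTTGAT on either strand, were found for 3 of the 14 Wnt target genes with a promoter entry (21.4%), namely Sp5 (chr2:70474673-70474972, + strand), Tnfrsf19 (chr14:61037938-61038237, - strand) and Mmp7 (chr9:7691840-7692139, + strand). The same letters occurred for 2671 of all 27025 genes with a promoter entry (9.88%), for 3 of the 11 xenobiotic enzyme genes (27.3%) and for 3 of the 7 Paneth cell genes (42.9%). The letters TTTATTG or TTTATGG, a core of CDX sites, were found for 2249 of all genes with an entry (8.32%), among them Cyp2c55 (chr19:39006769-39007068, + strand), the gene with the largest fall among abundant genes without overlap. The capitals mark these letters, read as ATCAAAG or CAATAAA where the match is on the other strand, and they lie 104 bases before the window's transcript start in Sp5, 202 before it in Tnfrsf19, 5 after it in Mmp7 and 232 before it in Cyp2c55. The window of Tnfrsf19 lies at a start inside the gene as the files give it (chr14:60963875-61046490). A match describes the sequence and is not evidence of binding.
Sp5: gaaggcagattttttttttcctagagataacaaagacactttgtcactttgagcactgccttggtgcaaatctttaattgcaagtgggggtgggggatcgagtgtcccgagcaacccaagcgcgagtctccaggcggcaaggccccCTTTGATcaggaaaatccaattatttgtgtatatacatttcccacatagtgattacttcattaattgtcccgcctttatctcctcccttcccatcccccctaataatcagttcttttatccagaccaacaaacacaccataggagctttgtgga
Tnfrsf19: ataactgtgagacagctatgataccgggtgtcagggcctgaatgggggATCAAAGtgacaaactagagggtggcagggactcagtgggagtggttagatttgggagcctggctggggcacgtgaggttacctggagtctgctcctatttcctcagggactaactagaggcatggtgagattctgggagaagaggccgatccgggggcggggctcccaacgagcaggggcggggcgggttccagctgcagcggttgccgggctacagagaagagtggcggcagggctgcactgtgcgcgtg
Mmp7: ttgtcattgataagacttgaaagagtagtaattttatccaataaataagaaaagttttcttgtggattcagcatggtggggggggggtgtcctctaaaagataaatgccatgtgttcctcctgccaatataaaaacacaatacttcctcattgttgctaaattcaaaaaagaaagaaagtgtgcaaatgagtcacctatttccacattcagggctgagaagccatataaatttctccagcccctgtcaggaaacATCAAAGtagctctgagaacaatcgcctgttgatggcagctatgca
Cyp2c55: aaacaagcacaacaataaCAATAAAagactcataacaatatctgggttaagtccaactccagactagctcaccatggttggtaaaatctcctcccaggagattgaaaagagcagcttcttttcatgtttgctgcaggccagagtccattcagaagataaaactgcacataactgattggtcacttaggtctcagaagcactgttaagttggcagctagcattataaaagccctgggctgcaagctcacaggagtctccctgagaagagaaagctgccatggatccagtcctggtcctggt

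To ask how the epithelium differs once Apc is lost, every gene with enough counts was tested between the groups. Of 16085 genes tested, 1209 (7.52%) were higher and 1267 (7.88%) were lower in tumor epithelium by edgeR's quasi-likelihood test, where a call needed a Benjamini-Hochberg adjusted p below 0.05 and a log2 fold change beyond 1.5 in size, 15.4% in all. The terms rose and fell are used below only of genes that passed both thresholds. The median log2 fold change of all genes tested was -0.01. Fits that leave out healthy libraries had more calls over all genes, beside which the list counts from these fits stand. Without healthy replicates 1 and 4, 1826 of 18097 genes were higher and 1478 lower. Without healthy replicate 1 alone the numbers were 1426 and 1375 of 16981, and without healthy replicate 4 alone 1518 and 1276 of 16996. Of the called genes, 2335 had no overlap between the 4 tumor and the 4 healthy libraries, while 27.8% of all genes tested had none. With Xist as a covariate 1159 genes passed, 643 higher and 516 lower, with fewer calls in most lists below: 11 goblet cell genes in place of 17, 12 colonocyte genes in place of 17, 12 ion transport genes in place of 17, 4 leukocyte signals in place of 9, and none in place of 3 for both MHC class II and interferon response. The balance of directions depended on the scale and on low counts: limma on log2(RPKM + 0.1) gave 1640 higher and 584 lower (73.7% higher, against 48.8% above) around a median shifted to 0.58, limma on log2(RPKM + 1) gave 356 and 220 around 0.19, and genes with at least 10 counts in every library gave 432 and 814. In bulk libraries, fewer cells of a type and less RNA per cell cannot be told apart.

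**Figure D2:**
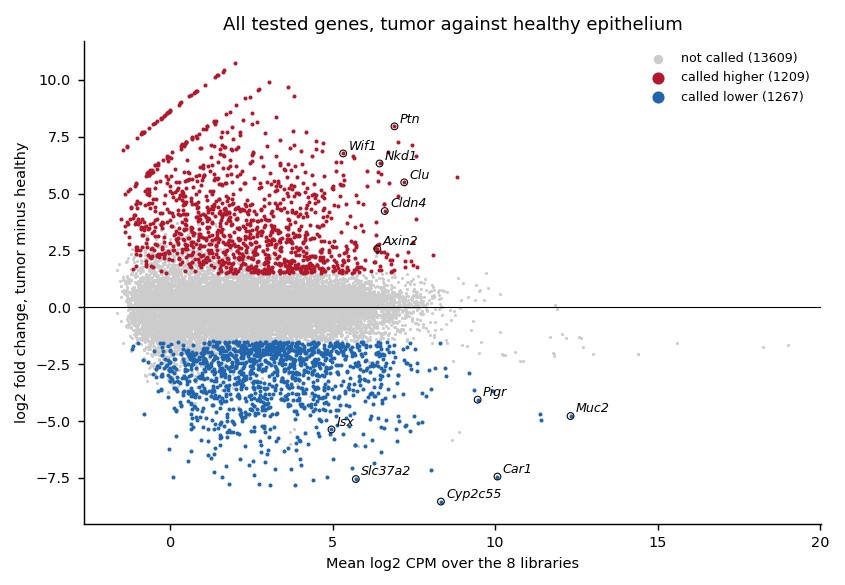
Each point is 1 of the 16085 genes tested, with the mean level (log2 CPM) on the x axis and the log2 fold change of tumor over healthy epithelium on the y axis. The 1209 genes called higher and the 1267 called lower are colored, and 12 genes described in the text are circled and named, with Ptn at 7.95 and Cyp2c55 at -8.54.

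The targeted gene was examined first. Apc (chr18) was at 243, 267, 159.7 and 211 CPM in tumor replicates 1 to 4 and at 169.6, 91.2, 76.5 and 63.7 in healthy replicates 1 to 4. The groups overlapped, since healthy replicate 1 lay above tumor replicate 3. The means were 220.0 ± 46.4 (SD, n = 4) and 100.2 ± 47.6 (SD, n = 4), with a log2 fold change of 1.13 ± 0.31 (SE) that did not pass the fold threshold (edgeR adjusted p = 0.0228, 2-sided exact permutation p = 0.0571). Without healthy replicate 1 it was 1.51 (adjusted p = 0.00138), past both thresholds, and without tumor replicate 1, 2 or 4 or healthy replicate 2 or 3 the adjusted p was 0.0511 to 0.0713. Recombination removes only a part of the gene, so that counts summed over the whole gene check neither the deletion nor its extent, and antisense or overlapping transcripts (Gm10548) cannot be separated without strand. Of the other members of the destruction complex and its regulators, none rose or fell among 11 of 12 tested, Apc included (median log2 fold change 0.27). Ctnnb1, which encodes β-catenin, had a log2 fold change of 0.75 ± 0.18 (SE, edgeR adjusted p = 0.013), with 298 to 450.4 CPM in tumors and 192 to 244 in healthy epithelium. The kinase Gsk3b (0.05 ± 0.16, adjusted p = 0.874) and the scaffold Axin1 (0.61 ± 0.37, adjusted p = 0.277) did not pass.

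Targets of β-catenin and TCF were higher in tumor epithelium. Of 22 Wnt target genes, all tested, 14 rose and none fell, with a median log2 fold change of 2.40 (2.61 without healthy replicate 1 and 3.01 without healthy replicates 1 and 4, with 14 risen each time). Axin2, the feedback scaffold and standard reporter of the pathway, was at 167, 166, 116 and 117 CPM in tumor replicates 1 to 4 and at 18.8, 27.9, 24 and 24.5 in healthy replicates 1 to 4. Every tumor library lay above every healthy one, and the log2 fold change was 2.57 ± 0.21 (SE, edgeR adjusted p = 3.4e-05). An overlapping transcript, Gm11670, cannot be separated from Axin2 without strand.

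Secreted and cytoplasmic inhibitors of Wnt signaling had the largest rises on the list. Wif1, which binds Wnt ligands, was at 91.1, 57.9, 83.3 and 84.2 CPM in tumors and at 2.23, 0.254, 0.276 and 0.12 in healthy epithelium (log2 fold change 6.76 ± 0.72, edgeR adjusted p = 1.3e-04). Nkd1, which acts on Dishevelled, was at 197, 171, 153 and 163 CPM in tumors and at 5.27, 0.856, 0 and 2.76 in healthy epithelium (6.32 ± 0.93, adjusted p = 8.1e-04). Apcdd1, a membrane inhibitor, was at 99.7, 80.8, 40.7 and 49.1 CPM in tumors and at 2.87, 0.254, 0 and 0.12 in healthy epithelium (6.37 ± 1.01, adjusted p = 0.00124). In all 3 genes the groups were far apart and healthy replicate 1 was the highest of the healthy libraries. Notum, a secreted enzyme that inactivates Wnt ligands, had a log2 fold change of 6.28 ± 0.93 (adjusted p = 8.9e-04), and the ubiquitin ligases that clear Wnt receptors from the surface had smaller ones, at 2.01 ± 0.28 for Rnf43 and 2.23 ± 0.24 for Znrf3.

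The transcription factors of the pathway rose as well. Lef1 was at 13 to 20.1 CPM in tumors and at 0.176 to 0.412 in healthy epithelium (log2 fold change 5.92 ± 0.40, edgeR adjusted p = 1.4e-05), and Tcf7 was at 47.3 to 70.3 and 1.98 to 5.77 (4.18 ± 0.36, adjusted p = 4.6e-05). Prox1, a homeobox factor, was at 1046, 1084, 664 and 743 CPM in tumors and at 44.7, 4.75, 4.37 and 13.2 in healthy epithelium (5.72 ± 0.78, adjusted p = 5.6e-04). Of the genes whose promoters are printed above, Sp5, a zinc finger factor, rose by 5.84 ± 0.81, the secreted protease Mmp7 by 5.26 ± 1.09 and the receptor Tnfrsf19 by 4.19 ± 0.81 on the log2 scale. Bambi, a decoy receptor for TGF-β family ligands, rose by 2.15 ± 0.62 (adjusted p = 0.0314).

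The other 8 Wnt targets did not pass. Lgr5, the receptor that marks crypt base stem cells, was at 67.7, 65.0, 59.1 and 79.4 CPM in tumors and at 52.9, 39.0, 30.3 and 14.1 in healthy epithelium. Its groups did not overlap, but the log2 fold change of 0.99 ± 0.33 missed both thresholds (edgeR adjusted p = 0.0567). Ascl2, a stem cell transcription factor, had a log2 fold change of -0.68 ± 0.46 with overlapping groups (adjusted p = 0.34). Myc (0.88 ± 0.15, adjusted p = 0.00217), Sox9 (0.90 ± 0.23, adjusted p = 0.019) and Ephb3 (1.23 ± 0.28, adjusted p = 0.00947) stayed under the fold threshold, as did Ephb2 in the opposite direction (-0.77 ± 0.21, adjusted p = 0.0239). The values for Cd44 and Ccnd1 were 0.09 ± 0.19 and 0.46 ± 0.25.

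Markers of intestinal stem cells moved in both directions. Of 12 tested, 3 rose and 1 fell, with a median log2 fold change of -0.06. Smoc2, a matricellular protein of crypt base cells, rose by 1.75 ± 0.25 on the log2 scale (edgeR adjusted p = 7.9e-04), from 5.88 to 10.5 CPM in healthy libraries to 22.3 to 26.6 in tumors. This call was lost in the fit of all 40 libraries and on log2(RPKM + 1). Sox4, a transcription factor, rose by 2.85 ± 0.36 (adjusted p = 3.7e-04). Rgmb, a co-receptor for BMP ligands, was at 16 to 21 CPM in healthy epithelium and at 2.69 to 5.75 in tumors (-2.08 ± 0.29, adjusted p = 6.3e-04). The RNA-binding protein Msi1 was called at 2.41 ± 0.76 (adjusted p = 0.045), and this call was lost without any of the tumor replicates or any of healthy replicates 1, 2 and 3 (adjusted p = 0.0588 to 0.108). Olfm4 was at 2.16 CPM or less in every library.

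Genes that mark fetal and regenerating intestinal epithelium were higher in tumors for 5 of the 10 tested and lower for none (median log2 fold change 1.71, or 2.39 with 6 risen without healthy replicates 1 and 4). Clu, a secreted chaperone, was at 253, 260.3, 280.2 and 353 CPM in tumor replicates 1 to 4 and at 19.6, 2.25, 0.551 and 3.12 in healthy replicates 1 to 4 (5.49 ± 0.92, edgeR adjusted p = 0.00178). Spp1, which encodes osteopontin, rose by 5.34 ± 1.19 (adjusted p = 0.00879), and Anxa1 (2.03 ± 0.39) and Anxa3 (1.60 ± 0.50) by less. Ly6a, which encodes Sca-1, had a value of -1.73 ± 0.58 that did not pass (adjusted p = 0.0562), although it did without tumor replicate 3 (-2.28, adjusted p = 0.0251) or healthy replicate 1 (-1.98, adjusted p = 0.0328).

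**Figure D3:**
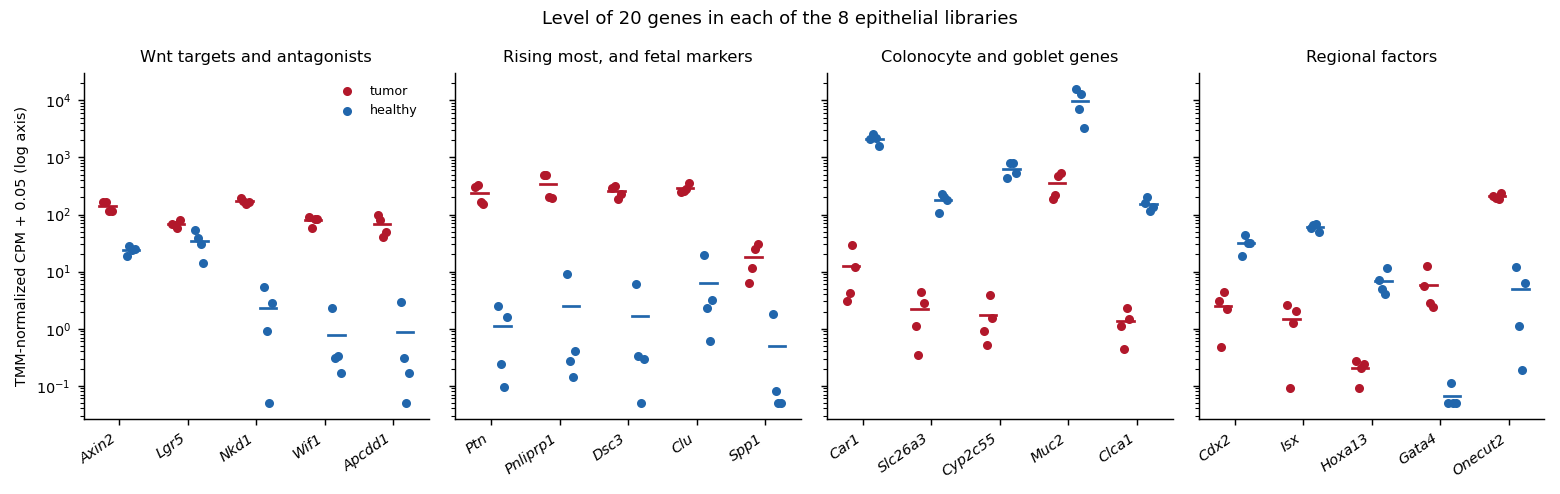
Levels (CPM plus 0.05, log axis) of 20 genes in 4 panels, with 1 dot for each of the 4 tumor and 4 healthy libraries and a bar at the group mean. Axin2, Nkd1, Wif1, Apcdd1, Ptn, Clu, Spp1, Gata4 and Onecut2 lie higher in all 4 tumor libraries. Lgr5 does so as well, but by less (a log2 fold change of 0.99), and was not called. Car1, Slc26a3, Cyp2c55, Muc2, Clca1, Cdx2, Isx and Hoxa13 lie higher in all 4 healthy libraries.

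Absorptive colonocyte genes were lower in tumor epithelium without exception among those tested. Of 18 genes, 17 were tested and all 17 fell, with a median log2 fold change of -4.16. Aqp8, a water channel, had too few counts in the tumor libraries for the test, and when healthy replicates 1 and 4 were left out all 18 were tested and fell. Car1, a carbonic anhydrase of the surface epithelium, was at 2141, 2593, 2200 and 1592 CPM in healthy replicates 1 to 4 and at 2.97, 4.23, 29.7 and 12.1 in tumor replicates 1 to 4. The log2 fold change was -7.44 ± 0.79 (edgeR adjusted p = 1.3e-04), and tumor replicates 3 and 4 held more than replicates 1 and 2. Slc26a3, the apical chloride and bicarbonate exchanger, was at 105, 225, 206 and 178 CPM in healthy and at 1.08, 0.299, 4.32 and 2.82 in tumor epithelium (-6.34 ± 0.70, adjusted p = 1.6e-04). Car4, another carbonic anhydrase, fell by 5.98 ± 0.77 on the log2 scale (adjusted p = 3.8e-04). The smallest falls on the list were those of the brush border myosin Myo1a (-2.13 ± 0.30) and the cadherin Cdh17 (-2.44 ± 0.44). Summed over the list, the level was 5949 to 13158 CPM in healthy and 209 to 758 CPM in tumor libraries.

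Genes of ion and water transport shared this direction in most cases, with 15 of 22 tested lower and 2 higher (median log2 fold change -1.96). Slc5a8, a sodium-coupled transporter of short-chain fatty acids, was at 39.6 to 52.7 CPM in healthy and at 0.0854 to 1.68 in tumor epithelium (-5.28 ± 0.60, edgeR adjusted p = 1.9e-04). The mineralocorticoid receptor Nr3c2 (-3.86 ± 0.29, adjusted p = 2.3e-05) and Hsd11b2 (-3.91 ± 0.45, adjusted p = 2.1e-04), the enzyme that keeps glucocorticoids from that receptor, fell together. The chloride channel Cftr was lower (-2.77 ± 0.30, adjusted p = 1.5e-04), and this call was lost in the fit of all 40 libraries (-2.78, adjusted p = 0.0956). The subunits of the epithelial sodium channel diverged. The α subunit Scnn1a was at 29.6, 27.8, 34.8 and 11.4 CPM in healthy and at 7.59, 2.01, 5.90 and 7.06 in tumor epithelium (-2.20 ± 0.46, adjusted p = 0.00583). The β subunit Scnn1b was at 0.996, 0.444, 0.046 and 0.12 CPM in healthy and at 7.19, 9.13, 3.56 and 5.50 in tumor epithelium (3.92 ± 0.76, adjusted p = 0.00406). The γ subunit Scnn1g was at 0.293, 0.127, 0.046 and 0 CPM in healthy and at 7.91, 0.854, 4.57 and 8.91 in tumor epithelium (5.42 ± 0.93, adjusted p = 0.00196). None of the 3 subunits overlapped between the groups, and reads of Cog7 could count toward Scnn1b. The apical sodium and proton exchanger Slc9a3 did not pass (1.35 ± 0.53, adjusted p = 0.0982), although it did without healthy replicate 4 (2.05, adjusted p = 0.00989).

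Goblet cell genes were lower for 17 of the 19 tested and higher for none, with a median log2 fold change of -3.59. Muc2, the mucin that forms the colonic mucus, was at 15878, 7128, 13110 and 3245 CPM in healthy replicates 1 to 4 and at 186, 224, 481 and 539 in tumor replicates 1 to 4 (-4.78 ± 0.61, edgeR adjusted p = 3.7e-04). The healthy libraries differed by more than 4-fold among themselves, with replicate 4 the lowest, and all lay above the tumor libraries. Clca1, a secreted protease of mucus, was at 115 to 206 CPM in healthy and at 0.384 to 2.29 in tumor epithelium (-6.84 ± 0.49, adjusted p = 1.9e-05), and the lectin Zg16 was at 41.2 to 74.1 and 0.171 to 1.18 (-6.68 ± 0.58, adjusted p = 4.8e-05). Atoh1, the factor that commits cells to the secretory lineage, fell by 4.02 ± 0.55 and the goblet cell factor Spdef by 3.79 ± 0.66 on the log2 scale. The exceptions were Sytl2 (-1.41 ± 0.32, adjusted p = 0.0102) and Capn9 (-1.77 ± 0.69, adjusted p = 0.0961).

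Of the enteroendocrine genes 9 of 17 had enough counts, and 5 of these fell while none rose (median log2 fold change -3.28). Chgb, a granin of secretory granules, was at 60.1, 86.1, 191 and 430.2 CPM in healthy and at 6.25, 6.10, 6.90 and 5.22 in tumor epithelium (-4.97 ± 0.60, edgeR adjusted p = 2.7e-04), so that the healthy libraries spread widely and the tumor libraries hardly at all. Chga (-4.69 ± 0.78), the glucagon precursor Gcg (-4.69 ± 0.77), Tph1 of serotonin synthesis (-4.27 ± 0.77) and secretin Sct (-3.28 ± 0.64) were the others that fell. Without healthy replicates 1 and 4, 13 genes had enough counts and 9 fell.

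The tuft cell result depended on 1 library. With all libraries, 2 of 11 tested tuft cell genes were lower and none higher (median log2 fold change -1.36). Without healthy replicate 4, 2 were higher and none lower (median 0.49). Dclk1 was at 13.1, 17, 8.11 and 7.63 CPM in tumors and at 4.86, 15.5, 8.23 and 90.2 in healthy epithelium, and Trpm5, the taste-type cation channel, was at 10.4, 6.79, 2.29 and 2.15 in tumors and at 6.56, 2.28, 2.80 and 55.6 in healthy epithelium. In both genes the other 3 healthy libraries overlapped the tumor libraries, and neither passed (edgeR adjusted p = 0.259 and 0.282). Alox5, which leukocytes also express, was called lower (-3.08 ± 1.00, adjusted p = 0.0497). Without healthy replicate 4 its value was -1.25 (adjusted p = 0.199). The call was lost as well without any of the tumor replicates (adjusted p = 0.0873 to 0.126) or without healthy replicate 3 (adjusted p = 0.0557).

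Paneth cells are not a regular cell type of the mouse colon, and 4 of the 9 Paneth cell genes had enough counts. None rose and 1 fell, Mptx2 (-2.93 ± 0.67, edgeR adjusted p = 0.0102). Lyz1, one of the lysozyme genes, ranged from 56.6 CPM in replicate 2 to 277 in replicate 3 among tumors and was at 43.7, 3.77, 4.37 and 58.9 in healthy epithelium. The groups overlapped and the value of 2.27 ± 0.89 did not pass (adjusted p = 0.0959), but it was 5.08 (adjusted p = 0.00243) without healthy replicates 1 and 4. Reads of Lyz1 and its near-identical neighbor Lyz2, a myeloid gene, may have been split between the genes, and Lyz2 itself had a value of 2.04 ± 0.86 that did not pass (adjusted p = 0.121). The 8 monocyte and macrophage markers, Lyz2 among them, summed to 64.1 to 281 CPM in tumors, highest in replicate 3 as Lyz1 was, and to 16.9 to 106 in healthy libraries. Their part in the values of Lyz1 was not tested. The defensin genes Defa24, Defa17, Defa21, Defa22 and Defa30 were at 1.18 CPM or less in every library.

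Metabolic genes of the mature epithelium were lower in tumors. Of 12 genes of xenobiotic metabolism, 11 fell and none rose (median log2 fold change -4.50). Cyp2c55, a cytochrome P450 (chr19:39007019-39042693), was at 433, 808, 785 and 534 CPM in healthy replicates 1 to 4 and at 0.854, 0.469, 3.85 and 1.47 in tumor replicates 1 to 4. With a log2 fold change of -8.54 ± 0.69 (edgeR adjusted p = 3.4e-05), this was the largest fall among abundant genes without overlap. The sulfotransferases Sult1a1 (-6.11 ± 0.45, adjusted p = 2.0e-05) and Sult1c2 (-5.89 ± 0.75, adjusted p = 3.6e-04) followed, the first with reads that cannot be separated from Sgf29. The glutathione transferase Gsta4 was the 1 member that did not pass (-0.95 ± 0.33, adjusted p = 0.067).

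Genes of fatty acid oxidation and ketone body synthesis were lower for 14 of 23 tested and higher for none, with a median log2 fold change of -1.74. Fabp2, a fatty acid binding protein, was at 285, 241, 268 and 190.1 CPM in healthy and at 3.15, 6.23, 5.13 and 2.51 in tumor epithelium (-5.86 ± 0.34, edgeR adjusted p = 1.2e-05). The groups were far apart, with little spread within each. The nuclear receptor Ppara fell by 4.47 ± 0.63 (adjusted p = 6.4e-04) and Cpt1a, which admits fatty acids to mitochondria, by 1.99 ± 0.21 on the log2 scale (adjusted p = 1.1e-04). The coactivator Ppargc1a (0.37 ± 0.24) and the kinase Pdk4 (0.38 ± 0.42) were the members with values above 0. Glycolysis and hypoxia genes did not share a direction, with 1 of 12 higher and 1 lower (median -0.12), or 3 higher and none lower without healthy replicates 1 and 4. Bnip3 rose by 3.07 ± 0.56 (adjusted p = 0.00282), and the glucose transporter Slc2a1 stayed under the fold threshold at 1.10 ± 0.19 (adjusted p = 0.00213). The call of Ankrd37 as lower (-2.43 ± 0.75, adjusted p = 0.0413) was lost without healthy replicate 4 (-1.42, adjusted p = 0.131) and without any of the tumor replicates (adjusted p = 0.0749 to 0.104).

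Among transcription factors that set regional identity along the gut, 6 of 15 tested fell and 2 rose (median log2 fold change -0.45). The paper shows tumors of this model in cecum and proximal colon, and its text does not give the segment of the healthy epithelium. Colon segment and tumor can therefore not be told apart in these values. Cdx2, the hindgut factor whose promoter drives the recombinase, was at 18.7, 43.3, 31.7 and 31.7 CPM in healthy and at 2.97, 0.427, 4.28 and 2.15 in tumor epithelium (-3.66 ± 0.57, edgeR adjusted p = 0.00118). Hoxa13, a factor of the most distal gut, was at 3.95 to 11.3 CPM in healthy and at 0.0427 to 0.225 in tumor epithelium (-5.41 ± 0.59, adjusted p = 1.6e-04), and the intestinal homeobox gene Isx fell by 5.37 ± 0.69 (adjusted p = 4.0e-04). In these 3 genes no tumor library reached the lowest healthy library. Cdx1 (-2.96 ± 0.33) and Hnf4a (-2.53 ± 0.31) fell as well.

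The 2 factors that rose mark more proximal gut. Gata4, expressed in the healthy small intestine proximal to the ileum, was at 5.53, 12.6, 2.79 and 2.32 CPM in tumors, at 0.0634 in healthy replicate 2 and at 0 in the other healthy libraries (fitted log2 fold change 7.69 ± 1.00, edgeR adjusted p = 4.3e-04). Onecut2 was at 209.9, 197, 184 and 242 CPM in tumors and at 11.9, 1.05, 0.138 and 6.25 in healthy epithelium (5.46 ± 0.97, adjusted p = 0.00241). Gata6, a relative of Gata4, had a value of 0.18 ± 0.22 (adjusted p = 0.624). The posterior Hox genes Hoxa9, Hoxb8 and Hoxb9 had values of 0.06 ± 0.38, -0.30 ± 0.52 and -0.32 ± 0.25, and none passed.

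Genes by which the epithelium addresses leukocytes were higher for 8 of 17 tested and lower for 1 (median log2 fold change 1.83). Without healthy replicates 1 and 4, 12 were higher and 1 lower (median 3.59), where 1826 of all 18097 genes were higher. Tgfb2, a TGF-β ligand, was at 32.5, 36.7, 16.4 and 25.4 CPM in tumors and at 0.468, 0.158, 0.0919 and 0 in healthy epithelium (7.14 ± 0.60, edgeR adjusted p = 4.1e-05). Il23a, the p19 subunit of interleukin-23, was at 10.4, 5.85, 14.3 and 14.7 CPM in tumors and at 0.176, 0.127, 0.046 and 0 in healthy epithelium (6.78 ± 0.61, adjusted p = 5.6e-05). Each tumor library was far above every healthy library for both ligands.

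The neutrophil-attracting chemokines were among the genes that rose. Cxcl1 was at 25.3, 30.9, 74.4 and 43.6 CPM in tumors and at 5.50, 1.81, 2.25 and 5.65 in healthy epithelium (3.55 ± 0.49, edgeR adjusted p = 5.9e-04). Cxcl2 (3.58 ± 0.87, adjusted p = 0.0137) and Cxcl3 (2.85 ± 0.69, adjusted p = 0.0132) rose as well. Cxcl5 was called at 4.15 ± 1.15 (adjusted p = 0.0255), and its call was lost without tumor replicate 1, 3 or 4 or healthy replicate 2 (adjusted p = 0.0523 to 0.0713). Csf1, the growth factor of macrophages, and the alarmin Il33 rose by 2.89 ± 0.85 and 2.91 ± 0.69 on the log2 scale. Ccl28, a chemokine of mucosal epithelium, was the 1 member that fell, from 39.0 to 63.2 CPM in healthy to 0.811 to 3.31 in tumor libraries (-4.96 ± 0.44, adjusted p = 5.1e-05). The summed leukocyte markers were at 4.72 to 9.98 CPM in tumors and at 2.21 to 8.67 in healthy replicates 1 to 3. The summed monocyte and macrophage markers were at 64.1 to 281 CPM in tumors and at 16.9 to 106 in healthy libraries, and their part in the result was not tested.

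Of the host defense genes, 6 of 11 tested fell and 1 rose (median log2 fold change -2.21). Pigr, which carries immunoglobulin A across the epithelium, was at 1107, 1585, 1489 and 1121 CPM in healthy and at 72.9, 65.8, 106 and 73.6 in tumor epithelium (-4.06 ± 0.25, edgeR adjusted p = 1.2e-05). Dmbt1, a scavenger receptor of mucus that overlaps reads of Fgfr2, was at 5891, 5818, 5667 and 3356 CPM in healthy and at 156, 109, 313 and 212 in tumor epithelium (-4.71 ± 0.41, adjusted p = 4.4e-05). Nlrp6, an innate immune sensor, fell by 3.67 ± 0.33 on the log2 scale (adjusted p = 5.0e-05). Lcn2, an iron-scavenging antimicrobial protein, went the other way, at 75.9, 70, 164 and 95.7 CPM in tumors and 10.1, 0.158, 0.138 and 3.00 in healthy epithelium (4.95 ± 1.10, adjusted p = 0.00851). The antimicrobial lectin Reg3b fell by 3.38 ± 0.68 (adjusted p = 0.00501). Reg3g was called at -2.21 ± 0.61 (adjusted p = 0.0243), and its call was lost without tumor replicate 1, 2 or 4 (adjusted p = 0.0578 to 0.0752) or healthy replicate 4 (-1.36, adjusted p = 0.06).

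The calls for 2 of the 3 MHC class II genes that fell were lost in most fits that left out 1 library. All 6 genes tested had values below 0 (median log2 fold change -3.11) and 3 fell. H2-Ab1 was at 1.71, 0.427, 4.82 and 5.27 CPM in tumors and at 1.52, 50.1, 14 and 47.5 in healthy epithelium, so that healthy replicate 1 lay within the tumor range and the other 3 above it. Its value was -3.18 ± 0.98 (edgeR adjusted p = 0.0404) and that of Cd74, the invariant chain, was -2.83 ± 0.88 (adjusted p = 0.042). Both calls were lost without any of the tumor replicates or healthy replicate 2 or 4 (adjusted p = 0.0549 to 0.119). Ciita, the master regulator of the class, held its call in each such fit (-4.95 ± 1.13, adjusted p = 0.0098). Its groups overlapped, with 0.351 CPM in healthy replicate 1 and 0.4 in tumor replicate 4. The call of Ciita was lost with Xist as a covariate and with limma on both RPKM scales. Without healthy replicate 1 all 7 genes were tested and fell, and without healthy replicate 4 only 1 of 6 did. Healthy replicate 4 was also the library with 431 CPM of B and plasma cell markers.

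Interferon-response genes were lower for 3 of 17 and higher for none (median log2 fold change -1.02), and without healthy replicate 1 for 7. Irf7 was at 28.0 to 37.2 CPM in healthy replicates 2 to 4, at 6.03 in healthy replicate 1 and at 4.74 to 6.05 in tumors (-2.34 ± 0.48, edgeR adjusted p = 0.00542). Psmb9, an immunoproteasome subunit whose reads overlap Tap1, fell by 2.39 ± 0.42 (adjusted p = 0.00236). Oasl2 was at 1.76 CPM in healthy replicate 1 against 92.7 to 108 in the other healthy libraries and 3.68 to 14 in tumors. Its call (-2.84 ± 0.88, adjusted p = 0.0422) was lost without any 1 library other than healthy replicate 1 (adjusted p = 0.0757 to 0.113).

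Proliferation genes were not higher in tumor epithelium by this test. Of 22 cell cycle genes, none rose and 1 fell (median log2 fold change -0.64), with 20 values below 0. Mki67, the proliferation marker, was at 188 ± 41.5 CPM (SD, n = 4) in tumors, highest in replicate 4 (244), and at 338, 495, 367 and 310.4 in healthy epithelium. The groups did not overlap, but its log2 fold change of -1.01 ± 0.22 stayed under the fold threshold (edgeR adjusted p = 0.00725). Top2a (-0.64 ± 0.39, adjusted p = 0.279) and Ccnb1 (-1.04 ± 0.88, adjusted p = 0.45) did not pass. Cenpa, a centromeric histone, was the 1 called gene, at the edge of the fold threshold (-1.52 ± 0.36, adjusted p = 0.0118), and its value was -1.30 to -1.48 without tumor replicate 1 or 2 or healthy replicate 2 or 3. Among inhibitors of cyclin-dependent kinases Cdkn1c rose (2.48 ± 0.60, adjusted p = 0.0136). Cdkn2c fell (-3.28 ± 0.87, adjusted p = 0.0209), a call lost without tumor replicate 1 or 4 or healthy replicate 3 (adjusted p = 0.0559 to 0.0679). Ribosome biogenesis genes, known targets of Myc, had no call among 16 (median 0.53), although 13 had values above 0.

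Among growth factors and junction proteins few genes passed. Of the EGF family 11 of 13 were tested, and the ligand Btc was called higher (2.16 ± 0.70, edgeR adjusted p = 0.0494) and Egf lower (-2.14 ± 0.59, adjusted p = 0.0259). The call of Btc was lost without any 1 library other than healthy replicate 1 (adjusted p = 0.0547 to 0.134) and that of Egf without tumor replicate 2, 3 or 4 or healthy replicate 3 (adjusted p = 0.0632 to 0.0878). Ereg and Areg were highest in healthy replicate 1, at 28.4 and 209 CPM. Neither passed with all libraries (-2.45 ± 0.80, adjusted p = 0.0503, and -1.49 ± 0.51, adjusted p = 0.0607), but Ereg passed without tumor replicate 3 (-3.34) or healthy replicate 2 (-2.76), and so did Areg (-1.97 and -1.74). Of 14 junction genes tested 1 rose and 3 fell (median log2 fold change -0.13). Cldn4, a tight junction claudin, was at 184 ± 41.5 CPM (SD, n = 4) in tumors, highest in replicate 1 (228), and at 23.8, 1.84, 4.64 and 9.25 in healthy epithelium (4.23 ± 0.67, adjusted p = 0.00131), while Cldn15 was lower (-3.55 ± 0.46, adjusted p = 4.1e-04) and the adherens junction gene Cdh1 was at -0.17 ± 0.17 (adjusted p = 0.536). The calls of Cldn2 and Cldn8 as lower (-1.51 ± 0.34 and -1.87 ± 0.51) did not hold in every fit. That of Cldn2 was lost in 15 of 21 alternatives, among them DESeq2, limma-voom and the test without a filter on low counts. It fell short of the fold threshold without tumor replicate 2 (-1.44) or healthy replicate 1 (-1.31), 2 or 3 (-1.42), and Cldn8 lost its call without tumor replicate 2, 3 or 4 or healthy replicate 1 (adjusted p = 0.0592 to 0.0709).

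In the BMP, Hedgehog and Notch pathways 5 of 16 genes rose and 1 fell (median log2 fold change 0.98), with 8 risen without healthy replicate 1 and 4 without healthy replicate 4. The ligands Bmp7 (3.88 ± 0.56, edgeR adjusted p = 7.9e-04) and Bmp4 (4.62 ± 0.64, adjusted p = 6.1e-04) were among them, the second at 2.52 to 4.13 CPM in tumors and at 0.0586 to 0.36 in healthy libraries. The receptor Notch2 rose by 1.58 ± 0.27 (adjusted p = 0.00188), or by 1.37 and thus under the threshold without healthy replicate 3. The Notch ligand Dll1 fell by 2.24 ± 0.49 on the log2 scale (adjusted p = 0.00747). The Notch target Hes1 had a value of 1.03 ± 0.33 (adjusted p = 0.049), and passed narrowly without healthy replicate 1 (adjusted p = 0.00116). The immediate early genes, which respond to stress during tissue dissociation among other stimuli, had 1 of 15 higher (Ier3, 2.58 ± 0.60, adjusted p = 0.0107; median 0.65), and 8 of 15 without healthy replicates 1 and 4 (median 1.62). Fos was at 163 to 281 CPM in tumors, at 123 to 181 in healthy replicates 2 to 4 and at 562 in healthy replicate 1.

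**Figure D4:**
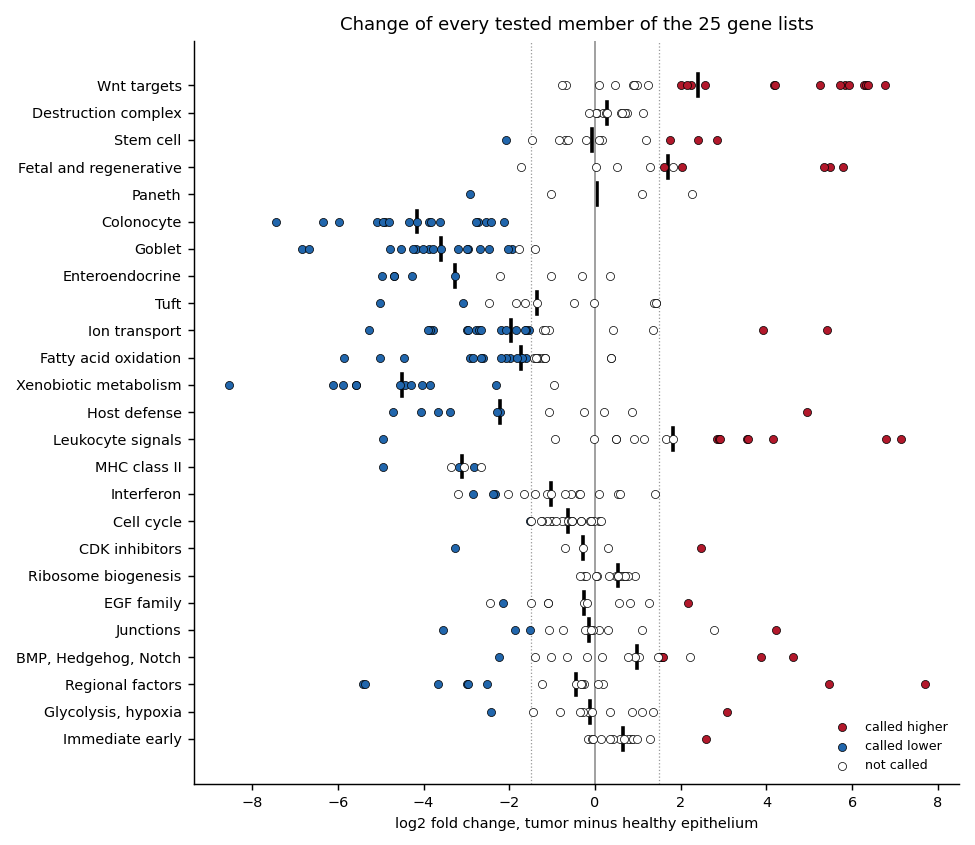
Log2 fold change of tumor over healthy epithelium for every tested member of the 25 gene lists, 1 row of points for each list, filled where the gene was called, with a black bar at the list's median, dotted lines at the fold threshold of 1.5 in each direction and a grey line at the median of all genes (-0.01). The colonocyte, goblet and xenobiotic lists lie lowest, with medians of -4.16, -3.59 and -4.50, and the Wnt targets highest, with a median of 2.40.

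Beyond the lists, genes with the largest changes were taken among 350 called genes with a mean level of at least 5 on the log2 CPM scale and no overlap between the groups, 128 higher and 222 lower. Ptn, which encodes the heparin-binding growth factor pleiotrophin (chr6:36714929-36810220), had the largest rise, at 306, 327, 164 and 155 CPM in tumors and 2.46, 0.19, 0.046 and 1.56 in healthy epithelium (log2 fold change 7.95 ± 0.92, edgeR adjusted p = 2.2e-04). Dsc3, a desmosomal cadherin of stratified epithelia, was at 297, 311, 184 and 225 CPM in tumors and at 5.97, 0.285, 0 and 0.24 in healthy epithelium (7.28 ± 1.19, adjusted p = 0.0015). Pnliprp1, a member of the pancreatic lipase family, was at 489, 499, 203 and 193 CPM in tumors and at 9.19, 0.222, 0.0919 and 0.36 in healthy epithelium (7.12 ± 1.29, adjusted p = 0.00281). In all 3 genes tumor replicates 1 and 2 held more than tumor replicates 3 and 4. The other largest rises were those of Pnliprp2 (6.82 ± 1.18), a neighbor of Pnliprp1 with which reads may be shared, the matrix proteoglycan Spock2 (6.67 ± 1.22), the secreted phospholipase Pla2g2a (6.65 ± 1.06), whose reads overlap Pla2g5, the transporters Abca13 (6.54 ± 0.87) and Slc38a4 (6.0 ± 1.00), and the cadherin Cdh13 (6.37 ± 0.87), with Wif1, Apcdd1 and Nkd1 above.

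The largest falls outside the genes already described were those of the sugar-phosphate exchanger Slc37a2, the peroxisomal oxidase Hao2, the unnamed gene Gm5843 and the selenium-binding proteins Selenbp1 and Selenbp2. Slc37a2 was at 93.2, 156, 79.8 and 85.9 CPM in healthy and at 0.494, 0.128, 1.21 and 0.232 in tumor epithelium (-7.55 ± 0.63, edgeR adjusted p = 4.0e-05). Hao2 was at 84.4, 106, 107 and 89.3 CPM in healthy and at 0.764, 0.0427, 1.66 and 0.274 in tumor epithelium (-7.06 ± 0.72, adjusted p = 1.0e-04). The levels of both genes in the tumor libraries were highest in tumor replicate 3. Gm5843 fell by 7.15 ± 0.75 on the log2 scale. Selenbp1 (-6.07 ± 0.62) and Selenbp2 (-6.06 ± 0.59) are near-identical copies whose reads cannot be assigned with certainty.

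Whether these changes belonged to the epithelial fraction was asked by testing the difference between the epithelial response and the response of the EpCAM- CD45- stromal fraction (4 tumor and 4 healthy libraries, 16 libraries in all). Of 20901 genes tested, 1423 (6.81%) had a response above and 1515 (7.25%) a response below that of the stroma at the same thresholds (edgeR's quasi-likelihood test of the interaction). Some animals' titles appear in both fractions, and the fit treated all libraries as independent. Tumor stromal libraries held epithelial markers at a summed 177 to 1552 CPM (median 707) against 7.82 to 107 (median 11) in healthy stroma, on a scale set over all 40 libraries, and the stromal values below move with this difference, the part of which was not tested.

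Differences were ranked among called genes with a mean level of at least 5 on the log2 CPM scale. Those with a response most above that of the stroma rose in tumor epithelium and had lower values in tumor stroma. Scube1, a secreted and surface glycoprotein, had a log2 fold change of 7.12 in the epithelium and -2.74 in the stroma (difference 9.85 ± 0.89, edgeR adjusted p = 1.9e-05). Its mean was 21.9 ± 5.42 CPM (SD, n = 4) in tumor epithelium, 0.174 ± 0.225 in healthy epithelium, 17 ± 6.40 in tumor stroma and 113 ± 49.9 in healthy stroma. The values for Tgfb2 were 7.19 and -1.26 (difference 8.45 ± 0.80, adjusted p = 2.6e-05), for the protocadherin Pcdh7 7.31 and -1.05 (8.36 ± 0.82), for the matrix proteoglycan Podn 5.95 and -2.33 (8.28 ± 1.34) and for Bmp4 4.74 and -3.20 (7.94 ± 0.61). In the stroma alone, Scube1 and Bmp4 passed (edgeR adjusted p = 0.00303 and 2.0e-04). The stromal values of Tgfb2, Pcdh7 and Podn did not pass (edgeR adjusted p = 0.0927, 0.182 and 0.0828). In the opposite direction the largest differences at this level were those of Sectm1b (-2.70 in the epithelium and 7.12 in the stroma) and the amino acid transporter Slc6a14 (-3.57 and 5.80). Hao2 (-7.03 and 2.18), Cyp2c55 (-8.50 and 0.63) and Lypd8 (-4.90 and 4.22), an antibacterial protein of the colonic surface, followed. Aqp8 had a larger difference (-10.49) but a lower mean level. The stromal values of Hao2 and Cyp2c55 did not pass (edgeR adjusted p = 0.265 and 0.794), with means of at most 1.11 CPM in either stromal group. Those of Sectm1b, Slc6a14 and Lypd8 passed (adjusted p = 4.4e-04, 2.6e-04 and 0.0439).

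Wnt targets did not separate the fractions as a group. Of the 22 genes, 2 had an epithelial response above and 3 below the stromal one, and 15 were called higher in the stromal fraction of tumors, where the median log2 fold change was 3.27. Axin2 changed by 2.63 in the epithelium and 2.99 in the stroma (difference -0.36 ± 0.83, edgeR adjusted p = 0.825). Of the 18 colonocyte genes 14 had a response below that of the stroma, and so did 11 of 19 goblet cell genes, 10 of 15 junction genes and 6 of 7 epithelial markers, the last with 7 of 7 called higher in the tumor stromal libraries. The share of all genes called higher in the stroma alone was not counted. The 15 Wnt targets and the 7 markers called there thus have no background beside them.

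**Figure D5:**
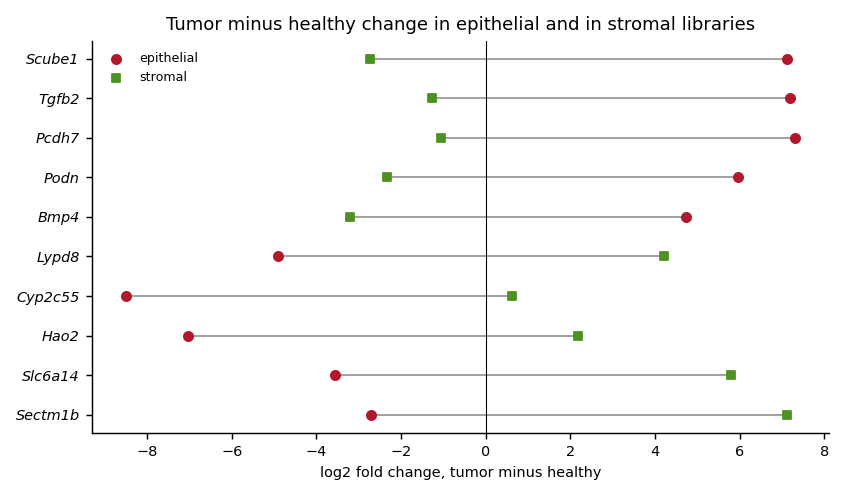
Log2 fold change of tumor over healthy tissue in the epithelial fraction (circles) and in the stromal fraction (squares) for 10 genes. They are those with the largest difference between the fractions, 5 per direction, among called genes with a mean level of at least 5 on the log2 CPM scale. The differences run from 7.94 to 9.85 for the 5 genes with the higher epithelial response and from -9.12 to -9.82 for the 5 with the lower one.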

How the data were processed

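RNA of sorted colon cells had been amplified (NuGEN Ovation V2) and sequenced on an Illumina HiSeq. The submitters' processing notes name mm10, Bowtie2, limma and bcl2fastq, and the annotation release, the use of strand and the handling of reads with several matches were not given in the sources used here. The authors deposited estimated counts per Ensembl gene, without normalization, and RPKM values, which scale reads by gene length and library. Of the nonzero counts 99.6% were not whole (tolerance 1e-06), and they were rounded, which moved a library's total by at most 896. Of 45706 genes 45143 had a symbol in GENCODE M21.

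Genes kept by filterByExpr were fitted with TMM factors and edgeR's robust quasi-likelihood test (edgeR 4.0.16, R 4.3.3), 4 tumor against 4 healthy libraries, with no covariate. The difference between fractions was an interaction over 16 libraries. Genes were called at an adjusted p below 0.05 and a log2 fold change beyond 1.5 in size, and ± after a fold change is its SE. Alternatives were limma-voom (limma 3.58.1), limma on RPKM values (log2 after adding 1 or 0.1), DESeq2 1.42.0, RLE factors, all genes unfiltered, a minimum of 10 counts per library, no mitochondrial genes, all 40 libraries, Xist, a replicate block, no fold threshold and each library left out. Leaving out healthy replicates 1 and 4 was chosen after seeing the data. The fit was tested on simulated data.

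The members and the 38 gene lists (25 of roles, 13 of markers) were chosen with earlier results of these data known. Genes named were Apc, the first 3 of each role list and up to 3 called per list and direction. The 12 abundant genes without overlap with the largest change per direction were added. So were 5 per direction for the interaction, among called genes with a mean level of at least 5 on the log2 CPM scale. Other list members were named to account for their list. Promoters are from RefSeq (GRCm38.p6). Replicates were libraries of 1 label, and their number limits the precision. Results on a few genes are not reported here.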

Additional observations from a re-analysis of the deposited data

Results flagged for a closer look

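In groups of 4 libraries, a library was listed when its gap to the nearest other library exceeded the 95% critical share of the group's range in Dixon's test. For normally distributed values chance gives this in about 1 of 20 groups. That rate need not hold for CPM, least of all near 0, as for Gata4 with at most 2 counts in any healthy library. A library was listed in 35 of 262 groups, healthy replicate 1 in 17 of them and healthy replicate 4 in 9. All values are CPM.

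Healthy replicate 1 was the highest healthy library for Wif1 (2.23), Apcdd1 (2.87), Clu (19.6), Spp1 (1.76), Cxcl5 (1.11), Dsc3 (5.97), Pnliprp1 (9.19), Pnliprp2 (6.5), Spock2 (13.2), Pla2g2a (3.57), Cdh13 (3.05) and Slc38a4 (3.75). It was also highest for the growth factors Ereg (28.4) and Areg (209), for Hes1 (74.1) and for Fos (562), and lowest for Oasl2 (1.76, against 92.7 to 108 in the others).

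Healthy replicate 4 was the highest healthy library for Dclk1 (90.2), Trpm5 (55.6), Alox5 (6.97), Cdkn1a (101) and Bmp4 (0.36). It was the lowest for Hsd11b2 (26.6), Cpt1a (88.8), Dmbt1 (3356) and Cldn15 (13.3). The other healthy libraries listed were replicate 3, high for Slc5a8 (52.7), and replicate 2, high for Gata4 (0.0634, against 0 in the others).

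Among tumor libraries, replicate 1 was high for Olfm4 (2.16) and Hes1 (114), replicate 2 was high for Msi1 (14.7) and low for Cldn2 (45.8), replicate 3 was high for Ang4 (11.6) and Egr1 (1430), and replicate 4 was low for Ncl (181).

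The log2 response of the epithelial fraction differed from that of the stromal fraction, by edgeR's interaction test, by 9.85 for Scube1, 8.45 for Tgfb2, 8.36 for Pcdh7, 8.28 for Podn and 7.94 for Bmp4. It differed by -9.82 for Sectm1b, -9.37 for Slc6a14, -9.21 for Hao2, -9.13 for Cyp2c55 and -9.12 for Lypd8. The adjusted p-values of these 10 differences ran from 1.0e-05 for Bmp4 to 0.00457 for Lypd8 (edgeR).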

How the results depend on the processing

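No named gene that was called in the main fit or in an alternative had opposite signs in them. Values of named genes called in neither could change sign, such as Trpm5 (-2.76 to 1.12 over the alternatives) and Dclk1 (-1.87 to 0.29). The calls among tuft cell genes went from lower to higher without healthy replicate 4, as given above. With at least 10 counts in every library, 10694 genes were tested and 1246 called between tumor and healthy epithelium (432 higher, 814 lower). For the difference between fractions 10039 genes were tested and 1219 called (458 above, 761 below). This filter drops any gene with fewer than 10 counts in even 1 library. With Xist as a covariate 1159 were called (643 and 516), and 30 of the named calls were lost. Among these were Rgmb, Chga, Gcg, Scnn1a, Mptx2, Reg3b, Lcn2, Ciita, Irf7, Psmb9, Cdkn1c, Dll1, Cdx2 and Ier3. The fit of all 40 libraries lost 14 named calls, among them Smoc2, Mptx2, Cftr, Reg3b, Cdkn1c and Dll1. Limma on log2(RPKM + 1) called 576 (356 and 220) and on log2(RPKM + 0.1) 584 lower genes, without a fold threshold 1924 were lower, and without healthy replicates 1 and 4 1826 were higher. The cause was not tested for Xist, RPKM, the minimum of 10 counts and the fit of all 40 libraries. DESeq2 called 3555 genes. Leaving out each library gave 2196 to 2801 called genes (1028 to 1518 higher, 1157 to 1375 lower) and 2393 to 3046 for the difference. Apc was at 1.14 with Xist (edgeR adjusted p = 0.208) and at 0.99 to 1.51 without 1 library, and it was called at 1.87 on log2(RPKM + 0.1) (limma) and at 1.13 without a fold threshold. Same-numbered libraries of the groups did not deviate together (r of -0.05 to -0.01), so the numbers pair no samples, and the fit with the replicate block called 2267 genes (1151 higher, 1116 lower) and Apc at 1.21. For genes under a few CPM, depth limits what can be seen, most of all in healthy replicate 4 with 6135838 counts outside mitochondrial genes.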

Other observations

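Some gene families had most of their members called together, nearly all of them outside the lists above (Clca1, Clca4a and Sprr1a are on lists). Of 449 families with at least 5 tested genes, grouped by the stem of the symbol, 10 had all members, or all but 1, called in the same direction. This choice followed the values. The clustered protocadherins Pcdhb, cell adhesion proteins best known from neurons, were higher in tumor epithelium for 14 of 15 genes (median log2 fold change 4.67, all but Pcdhb17), the Serpina protease inhibitors for 7 of 7 (4.35) and the interferon-inducible membrane proteins Ifitm for 4 of 5 (2.84, all but Ifitm6).

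Lower in tumors were 14 of 15 Ugt glucuronosyltransferases (median -5.46, all but Ugt8a) and 9 of 10 Ces carboxylesterases (-4.84, all but Ces2g), both of drug and lipid metabolism, and 6 of 6 Btnl butyrophilin-like genes (-5.36), some of which act on intraepithelial T cells. The others were 7 of 7 Clca genes (-3.49), 7 of 7 Ceacam adhesion molecules (-3.49), 5 of 5 Naip sensors of bacterial proteins (-3.49) and 5 of 6 Sprr genes (-3.74, all but Sprr1a). Without healthy replicates 1 and 4 the numbers called were the same, except 6 for Ceacam, 6 for Serpina and 5 for Ifitm. Members of a family may share exons or near-identical sequence, which was not tested. Their reads may then be counted for each other, so that the members cannot be taken as independent.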
